A study of Mus musculus with 12 samples.

Results

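Heat shock proteins of the cytosol and of mitochondria were followed in mouse liver across 4 treatments. The set holds 10 genes chosen by name, namely Hspa1a, Hspa1b, Hspa8, Hsph1, Dnajb1, Hsp90aa1, Hspb1, Hspd1, Hspe1 and Hsf1. Each gene was read from a probe set, a group of array probes that reads a transcript, that carries its symbol alone. Where several probe sets did so, the one with the highest mean over the 12 arrays was used. Of the 10 genes, 8 had such a probe set, out of 19937 genes that did so on the whole array, and all 8 passed the filter on dim values. Hspa1b was read only by a probe set that it shares with its near-identical neighbour Hspa1a, and Hsf1 was not analysed here. In all, 15 probe sets carried the symbol of a member alone.

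The livers came from C57BL/6 mice that were 6 weeks old according to the labels, while the methods describe female C57BL/6J mice bought at a slightly higher age. A dose of 55 nmol/kg Albulin (insulin joined to albumin), 55 nmol/kg Insulin-Apo (a single-chain insulin joined to apolipoprotein A-I) or 55 nmol/kg insulin glargine (an analogue of insulin with a prolonged action) was given, or saline as the control, and the liver was taken after 6 h. The paper's array methods give a subcutaneous route for Albulin, Insulin-Apo and saline and do not mention insulin glargine. They therefore do not say how insulin glargine was given or whether its arrays were run alongside the others. There were 3 arrays in each group, and the sources used here do not say that each array is a separate mouse. All values are log2 expression values from the Robust Multichip Average algorithm (RMA), and every difference is a log2 fold change.

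Heat shock proteins are molecular chaperones that bind unfolded or partly folded proteins and help them fold, move or be degraded. HSP70 proteins take up a client protein from a J-domain partner, HSP110 proteins renew their nucleotide, HSP90 proteins complete the folding of kinases and steroid receptors, small heat shock proteins hold unfolded clients, and HSP60 with HSP10 forms the folding chamber of mitochondria. Cells under heat or other proteotoxic stress raise the inducible members through heat shock factor HSF1, which binds repeats of a short GAA unit in their promoters.

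Promoter sequences of RefSeq (GRCm38.p6), from 250 bases before to 50 bases after a gene's start, were matched by symbol. Among the 10 genes, 7 had at least 1 such window, and Hspa8, Hsp90aa1 and Hsf1 are named only. The windows were searched on both strands for a pair of units, GAANNTTC or TTCNNGAA, and for 3 units in a row, GAANNTTCNNGAA or TTCNNGAANNTTC, which contain the pair. A pair was found for 6 of the 7 genes, against 17% of 27025 genes with a window, and 3 units in a row for Hsph1, Hspd1 and Hspe1, against 0.662% of all genes. The stretches below carry these matches, shown because they set the mitochondrial pair, which shares a promoter, beside the cytosolic genes, with the matched letters in capitals. Hspe1 and Hspd1 face away from each other. Hspd1 had 2 windows, with matches in the second only, and that window has 285 of 300 bases in common with the window of Hspe1. The same stretch (chr1:55088029-55088106) is given on the plus strand for Hspe1 (bases -119 to -42 from its start) and on the minus strand for Hspd1 (bases -174 to -97 from the start of its second window's transcript). The stretch of Hspa1a lies at chr17:34972223-34972290, minus strand, that of Hspb1 at chr5:135887772-135887859, plus strand, and that of Hsph1 at chr5:149636337-149636399, minus strand.
Hspe1: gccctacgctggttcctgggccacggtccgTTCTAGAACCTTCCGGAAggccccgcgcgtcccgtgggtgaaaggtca
Hspd1: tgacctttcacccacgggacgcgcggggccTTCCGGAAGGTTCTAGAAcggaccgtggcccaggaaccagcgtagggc
Hspa1a: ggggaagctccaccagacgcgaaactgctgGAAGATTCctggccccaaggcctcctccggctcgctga
Hspb1: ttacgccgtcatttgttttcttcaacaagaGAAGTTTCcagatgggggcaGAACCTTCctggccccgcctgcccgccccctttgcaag
Hsph1: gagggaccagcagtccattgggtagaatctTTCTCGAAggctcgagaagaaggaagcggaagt
The window of Hspa1b has the same base as that of Hspa1a at 296 of 300 positions and holds the same match. The match of 3 units in Hsph1 lies after its start and is not in the stretch. For Dnajb1 these letters are not in its windows. A match describes the letters only.

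The arrays had medians between 7.695 and 7.77. An array's mean correlation with the others of its group was 0.995 to 0.997 after Albulin, Insulin-Apo and saline, and 0.990 to 0.993 after insulin glargine. Insulin glargine replicate 3 had the lowest value, 0.990, and its 8 heat shock genes lay on average 0.20 below their group means, so the members' changes after insulin glargine are also given without it, and those of other genes where it moved them. Because the members' own low values were part of this choice, leaving it out raises their average by construction and gives no independent support. The members' mean deviation was 0.16 on insulin glargine replicate 2, and -0.14 and 0.14 on Albulin replicates 2 and 3. Those arrays were left out only among the alternatives described at the end. Hepatocyte markers averaged 14.44 to 14.47 after Albulin, 14.38 to 14.46 after Insulin-Apo, 14.44 to 14.51 after insulin glargine and 14.44 to 14.47 after saline, with 0 of 8 called (limma) in any comparison and at most 1 higher and 1 lower at an unadjusted p under 0.05.

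Hsp90aa1, the inducible cytosolic HSP90, was the member whose level differed most clearly among the treatments. It was higher on every array of the 3 insulins than on every saline array, and it rose past the threshold after insulin glargine. The inducible HSP70 gene Hspa1a, its constitutive relative Hspa8, the HSP110 gene Hsph1, the small heat shock protein gene Hspb1 and the mitochondrial chaperonin genes Hspd1 and Hspe1 were not called in any comparison. Dnajb1, a J-domain partner of HSP70 that heat strongly induces, was lower on every array of Albulin and of insulin glargine than on every saline array, without being called. The share of all probe sets whose arrays separate in this way was not counted. Here and below, such separation therefore only describes the arrays.

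A probe set was called when limma's B statistic, the log odds that it differs, was above 0. After Albulin, 0 of the 8 members were called against saline, where 2.41% of 25989 probe sets were, and 1 member was higher and none lower at an unadjusted p under 0.05. After Insulin-Apo, 0 of 8 were called, against 2.14% of 25989, with the same unadjusted counts. After insulin glargine, 1 of 8 was called, higher, against 4.84% of 26027, and 2 were higher and 1 lower at an unadjusted p under 0.05. Between the insulins, 0 of 8 members were called for Albulin against Insulin-Apo (background of calls 0.639%), for insulin glargine against Albulin (4.35%) and for insulin glargine against Insulin-Apo (4.84%). At an unadjusted p under 0.05, there were 2 lower, 2 higher and 1 lower in that order. The share of all probe sets at an unadjusted p under 0.05 was not counted. The unadjusted counts in this report therefore have no background beside them. By limma's F test over the 4 treatments, 1 of 8 differed at an adjusted p under 0.05, against 13.3% of 26027. The members' shares rest on at most 1 gene in each comparison. The members' median size of change against saline was 0.11 after Albulin, 0.052 after Insulin-Apo and 0.18 after insulin glargine, and over all probe sets it was 0.081, 0.083 and 0.097. The 3 comparisons with saline use the same saline arrays.

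**Figure D1:**
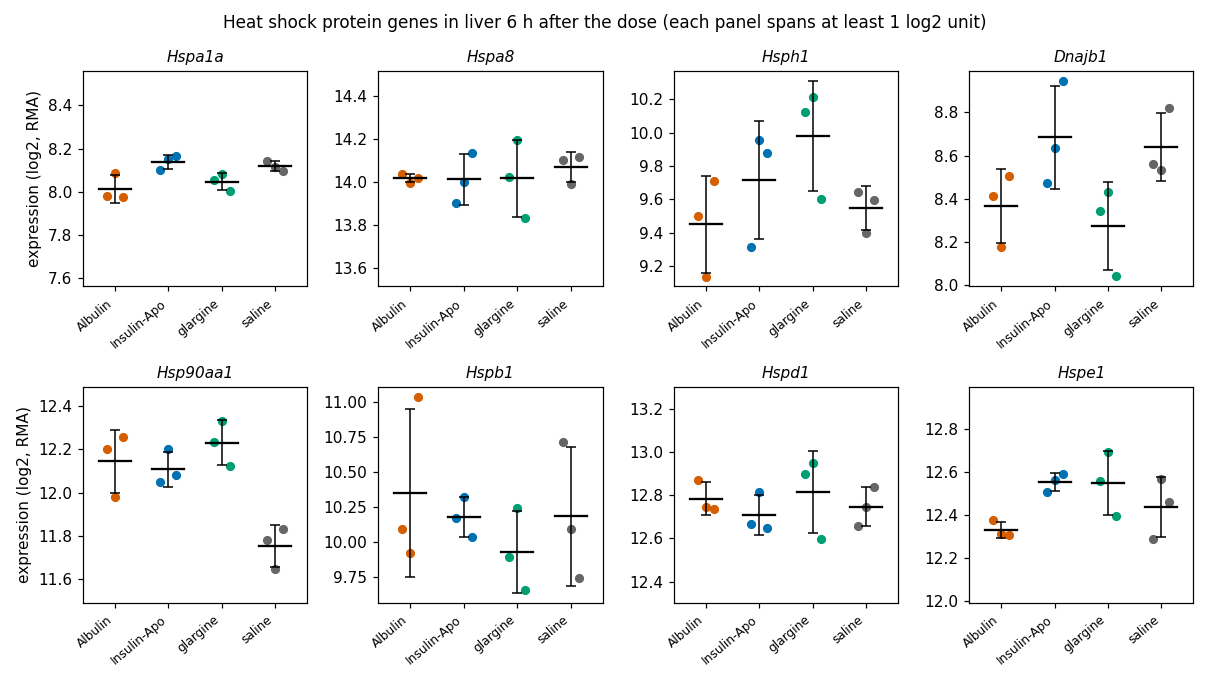
Expression (log2, RMA) of the 8 measured heat shock protein genes after Albulin, Insulin-Apo, insulin glargine (glargine) and saline. Points are arrays, 3 in a group, with the group mean as a horizontal bar and its SD as whiskers. All arrays of the 3 insulins lie above the saline arrays for Hsp90aa1, and those of Albulin and insulin glargine lie below them for Dnajb1.

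HSP90 chaperones keep signalling proteins such as kinases and steroid receptors in an active fold. Hsp90aa1 (probe set 10402615) read 12.20, 11.98 and 12.26 after Albulin, 12.05, 12.20 and 12.08 after Insulin-Apo, 12.24, 12.33 and 12.12 after insulin glargine, and 11.78, 11.64 and 11.83 after saline. The lowest array of any insulin was above the highest saline array, while the 3 insulins overlapped each other. Hsp90aa1 rose after insulin glargine by 0.48 (standard error 0.090, adjusted p = 0.00482, limma), and without replicate 3 the rise was 0.53 (adjusted p = 0.00332, limma). The log2 fold change was 0.39 with Albulin (standard error 0.086, adjusted p = 0.0287, limma) and 0.36 with Insulin-Apo (standard error 0.086, adjusted p = 0.0472, limma), both under an adjusted p of 0.05 but not called. Its F test over the 4 treatments had an adjusted p of 0.0125 (limma). The call after insulin glargine was lost in 8 of 23 alternatives, among them those without insulin glargine replicate 1 or 2 or saline replicate 1 or 2, while the log2 fold change lay between 0.42 and 0.54 in all of them. After Albulin the gene was called without Albulin replicate 2, in which it was lowest, and the F test was lost without saline replicate 2.

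The insulins did not differ detectably in Hsp90aa1. The log2 difference was 0.036 for Albulin against Insulin-Apo (95% interval -0.15 to 0.23), 0.086 for insulin glargine against Albulin (-0.11 to 0.28) and 0.12 for insulin glargine against Insulin-Apo (-0.074 to 0.32). A difference of up to these bounds is not shown to be absent.

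**Figure D2:**
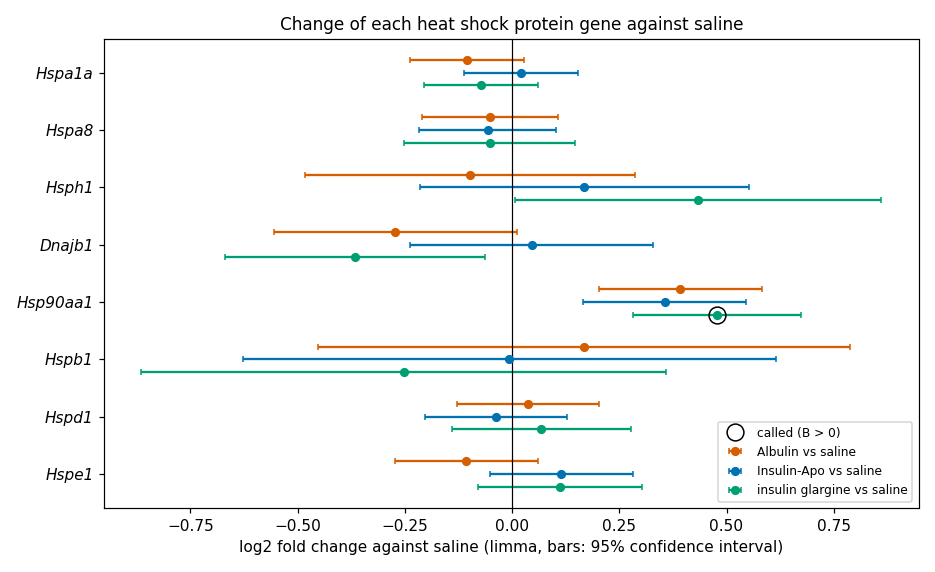
Log2 fold change against saline (horizontal axis) of the 8 members after Albulin, Insulin-Apo and insulin glargine, as points with 95% confidence intervals from limma, with a ring around the called value. The intervals of Hsp90aa1 lie above 0 after all 3 insulins, and Hspb1 has the widest intervals.

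A pair of other probe sets also carried the symbol Hsp90aa1 alone. Probe set 10490946 read 11.78, 11.66 and 11.86 after Albulin, 11.67, 11.84 and 11.62 after Insulin-Apo, 11.98, 11.98 and 11.44 after insulin glargine, and 11.31, 11.13 and 11.42 after saline. Probe set 10378848 read 10.99, 10.90 and 11.12 after Albulin, 10.98, 11.07 and 10.81 after Insulin-Apo, 11.55, 11.24 and 10.84 after insulin glargine, and 10.58, 10.44 and 10.75 after saline. In both, as in the first, every array of the insulins was above every saline array, and insulin glargine replicate 3 was the lowest of the insulin arrays but for Insulin-Apo replicate 3 in 10378848. Probe set 10490946 was called after Albulin (0.48, adjusted p = 0.0162, limma), but not after Insulin-Apo (0.42, adjusted p = 0.0314, limma) or insulin glargine (0.51, adjusted p = 0.0289, limma). Probe set 10378848 was called after none of them, with log2 fold changes of 0.42, 0.37 and 0.62. Across the 12 arrays, which share their normalization, the values had r = 0.92 and r = 0.86 with the first probe set. Hsp90aa1, Hspa8, Hspd1 and Hspe1 have processed copies in the genome, and which copy a probe set reads was not tested. The place in the genome that each probe set of Hspb1 reads was not tested either.

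**Figure D3:**
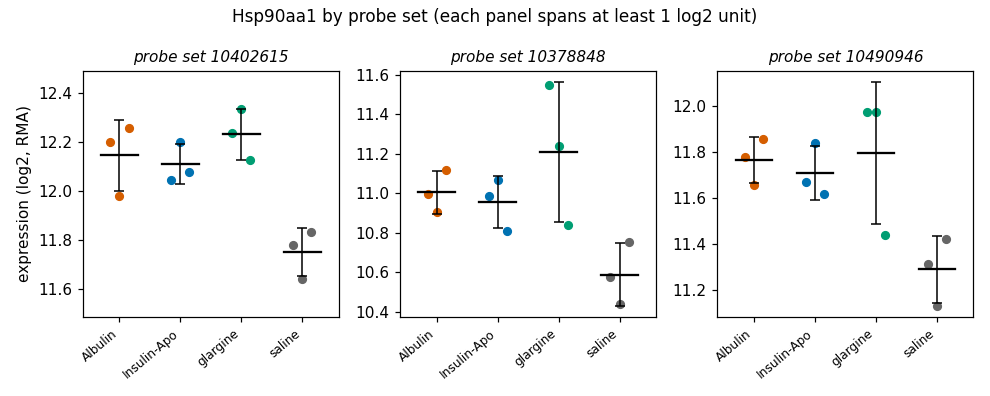
Expression (log2, RMA) of the 3 probe sets that carry the symbol Hsp90aa1 alone, after Albulin, Insulin-Apo, insulin glargine (glargine) and saline. Points are arrays, 3 in a group, with the group mean as a horizontal bar and its SD as whiskers. In each panel the saline arrays lie lowest.

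Other cell types and the clock moved in some of these comparisons. Of 8 neutrophil markers, 3 rose after Albulin and 0 were called after Insulin-Apo (limma, 6 higher at an unadjusted p under 0.05) or insulin glargine (2 lower). Their mean on an array was 7.68 to 7.79 after Albulin, 7.51 to 7.71 after Insulin-Apo, 6.95 to 7.12 after insulin glargine and 7.08 to 7.32 after saline. Of 8 markers of Kupffer cells and macrophages, 1 rose after Insulin-Apo, and the lists of endothelial cells, cholangiocytes, stellate cells, lymphocytes and erythroid cells held 0 called markers against saline (limma), with at most 4 of a list higher and 2 lower at an unadjusted p under 0.05. Clock genes were called in all 3 comparisons with saline. Of 15, 1 was higher and 1 lower after Albulin (background 2.41%), and 1 higher and 5 lower after Insulin-Apo (2.14%). After insulin glargine 4 were higher and 4 lower (4.84%). For insulin glargine against Albulin (4.35%), 4 clock genes were called higher and 2 lower, and 6 of 8 neutrophil markers lower. Against Insulin-Apo (4.84%), 5 clock genes were called higher and 2 lower, and 4 of 8 neutrophil markers lower. For Albulin against Insulin-Apo (0.639%), 0 of either list were called. The sources used here give no time of day. The part of these cell types and of the clock in the values of the heat shock genes was not tested. In whole liver, fewer cells of a type and less RNA per cell cannot be told apart.

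The HSP70 genes lay close together in all groups. Hspa8 (probe set 10528021), the constitutive cytosolic HSP70 that serves protein folding and clathrin uncoating, read 14.04, 14.00 and 14.02 after Albulin, 13.90, 14.00 and 14.14 after Insulin-Apo, 14.02, 14.19 and 13.83 after insulin glargine, and 14.10, 13.99 and 14.12 after saline. All groups overlapped. Its log2 fold change was -0.051 after Albulin (95% interval -0.21 to 0.11), -0.057 after Insulin-Apo (-0.22 to 0.10) and -0.052 after insulin glargine (-0.25 to 0.15), or 0.039 without insulin glargine replicate 3 (adjusted p = 0.840, limma). The other 2 probe sets of Hspa8 were not called either, and insulin glargine replicate 3 was the lowest array in all 3 probe sets.

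Hspa1a (probe set 10450369), the main stress-inducible HSP70, read 7.98, 8.09 and 7.98 after Albulin, 8.10, 8.15 and 8.16 after Insulin-Apo, 8.06, 8.08 and 8.003 after insulin glargine, and 8.14, 8.12 and 8.10 after saline. The arrays of Albulin and of insulin glargine lay just below those of saline, by a log2 fold change of -0.10 (adjusted p = 0.412, limma) and -0.072 (adjusted p = 0.591, limma), the second being -0.051 without insulin glargine replicate 3. After Insulin-Apo the groups overlapped, at 0.021 (95% interval -0.11 to 0.15). The probe set that Hspa1a shares with Hspa1b (10450367) read 9.22, 9.50 and 9.30 after Albulin, 9.21, 9.48 and 9.52 after Insulin-Apo, 9.31, 9.28 and 9.36 after insulin glargine, and 9.45, 9.43 and 9.60 after saline. It was not called in any comparison, with a log2 fold change of -0.15 after Albulin, -0.092 after Insulin-Apo and -0.18 after insulin glargine.

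Among the partners of HSP70, Dnajb1 and Hsph1 had larger values of opposite sign after insulin glargine. Dnajb1 (probe set 10573198), the J-domain protein HSP40 that hands clients to HSP70, read 8.41, 8.18 and 8.51 after Albulin, 8.47, 8.64 and 8.95 after Insulin-Apo, 8.34, 8.43 and 8.04 after insulin glargine, and 8.56, 8.53 and 8.82 after saline. The arrays of Albulin and insulin glargine lay below all saline arrays, and those of Insulin-Apo overlapped them. The log2 fold change was -0.27 after Albulin (standard error 0.13, limma adjusted p = 0.300), 0.046 with Insulin-Apo (standard error 0.13, adjusted p = 0.902, limma) and -0.37 after insulin glargine (standard error 0.14, adjusted p = 0.127, limma), and none was called. Insulin glargine also lay below Insulin-Apo on every array, by -0.41 (adjusted p = 0.0832, limma). Without insulin glargine replicate 3 the differences were -0.25 from saline (adjusted p = 0.305, limma) and -0.30 from Insulin-Apo (adjusted p = 0.230, limma).

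Hsph1 (probe set 10535904), the HSP110 that exchanges the nucleotide of HSP70, read 9.50, 9.14 and 9.71 after Albulin, 9.31, 9.96 and 9.88 after Insulin-Apo, 10.12, 10.22 and 9.60 after insulin glargine, and 9.65, 9.40 and 9.60 after saline. A pair of the insulin glargine arrays stood above all arrays of the other groups, and replicate 3 lay within them. Its log2 fold change was -0.098 after Albulin, 0.17 after Insulin-Apo and 0.43 after insulin glargine (standard error 0.20, adjusted p = 0.214, limma). Without replicate 3 it was 0.62 against saline (adjusted p = 0.0508, limma) and 0.72 against Albulin (adjusted p = 0.0301, limma), still not called.

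Hspb1, the small heat shock protein that holds unfolded clients and binds actin, had the widest spread of the members. Probe set 10408928 read 10.09, 9.92 and 11.04 after Albulin, 10.17, 10.32 and 10.04 after Insulin-Apo, 9.89, 10.25 and 9.66 after insulin glargine, and 10.72, 10.10 and 9.74 after saline. Albulin replicate 3 and saline replicate 1 were the highest, in a second probe set too (10526410, at 10.75 and 10.64), which had r = 0.97 with the first over the 12 arrays. With an SD of 0.60 after Albulin and 0.49 after saline, the log2 fold changes of 0.17 after Albulin (95% interval -0.45 to 0.79), -0.0061 after Insulin-Apo (-0.63 to 0.61) and -0.25 after insulin glargine (-0.86 to 0.36) leave a change of either sign possible. Without insulin glargine replicate 3 the value after insulin glargine was -0.12 (adjusted p = 0.876, limma).

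The mitochondrial chaperonin genes were not called after any insulin. Hspd1 (probe set 10375240), HSP60, read 12.87, 12.75 and 12.74 after Albulin, 12.67, 12.82 and 12.65 after Insulin-Apo, 12.90, 12.95 and 12.60 after insulin glargine, and 12.66, 12.75 and 12.84 after saline. All groups overlapped, and the log2 fold changes against saline were 0.038 after Albulin (95% interval -0.13 to 0.20), -0.037 after Insulin-Apo (-0.20 to 0.13) and 0.068 after insulin glargine (-0.14 to 0.28). The last was 0.18 without insulin glargine replicate 3 (adjusted p = 0.201, limma). Its second probe set (10354732) was not called and read 12.71, 12.81 and 11.996 after insulin glargine, so that replicate 3 was again the low one.

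Hspe1 (probe set 10455588), HSP10, the lid of the HSP60 chamber, read 12.37, 12.31 and 12.31 after Albulin, 12.51, 12.56 and 12.59 after Insulin-Apo, 12.56, 12.69 and 12.40 after insulin glargine, and 12.29, 12.57 and 12.46 after saline. The Albulin arrays overlapped those of saline but lay below all arrays of the other insulins. Its log2 fold change against saline was -0.11 after Albulin, 0.11 after Insulin-Apo and 0.11 after insulin glargine, or 0.19 without insulin glargine replicate 3 (adjusted p = 0.193, limma). Its log2 difference was -0.22 for Albulin against Insulin-Apo (standard error 0.075, adjusted p = 0.245, limma) and 0.22 for insulin glargine against Albulin (standard error 0.088, adjusted p = 0.168, limma), or 0.29 without insulin glargine replicate 3 (adjusted p = 0.0463, limma), and none was called. The second probe set of Hspe1 (10346303) had -0.19 and 0.32 in these comparisons (adjusted p = 0.244 and 0.0188, limma), also with no overlap and no call. The probe sets had r = 0.64 over the 12 arrays and disagreed on insulin glargine replicate 3, which was the lowest array of its group in the first and the highest in the second.

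Within the groups several members went up and down together. With each group's mean removed, 12 arrays gave r = 0.84 for Hsph1 and Hsp90aa1, 0.83 for Hspa8 and Dnajb1, 0.81 for Hsph1 and Dnajb1, 0.76 for Hspa8 and Hsph1, 0.73 for Hspd1 and Hspe1 and 0.67 for Dnajb1 and Hsp90aa1. Without insulin glargine replicate 3, the 11 other arrays gave 0.81, 0.76, 0.73, 0.62, 0.50 and 0.58 for these pairs in the same order. Hspa1a had lower values with these genes, at 0.48 with Hspa8, 0.14 with Hsph1, 0.046 with Dnajb1 and -0.22 with Hsp90aa1, and without insulin glargine replicate 3 at 0.27, -0.14, -0.23 and -0.50. The small spread of Hspa1a (SD 0.065 over the 12 arrays) limits what its correlations can show. These values describe arrays that share a normalization, and they carry no test. Dnajb1 and Hsp90aa1, which varied together within the groups, had r = -0.24 over the 12 arrays when the group means were left in.

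The genes most like the members were found by Pearson correlation over the 12 arrays among 18909 genes. With the mean of the 6 measured cytosolic members, each scaled to its own SD, Ahsa2 had r = 0.93, Vezf1 0.91, Stip1 0.91, Zranb2 0.90 and Mrpl45 0.90. With the mean of Hspd1 and Hspe1, Atp5pb had r = 0.91, Ece2 0.90, Nuak1 0.88, Rab10 0.88 and Ofd1 0.87. Such a ranking picks the highest of many values, and insulin glargine replicate 3 contributes to each of them. Ahsa2 itself read 9.67, 9.86 and 9.35 after insulin glargine and 9.87, 9.64 and 9.78 after saline, and Stip1 read 10.83, 10.99 and 10.51 after insulin glargine and 10.98, 10.77 and 10.74 after saline. In both, replicate 3 was the lowest of the 3 insulin glargine arrays.

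Other chaperone genes were described by lists, most of which held at most 1 called gene in a comparison. Over all probe sets the median log2 fold change was 0.0026 after Albulin, -0.017 after Insulin-Apo and -0.00033 after insulin glargine. Of 8 other small heat shock proteins, Hspb8 rose after all 3 insulins and the rest were not called, with list medians of 0.029, -0.029 and 0.052 in that order. Hspb8 (probe set 10533050), which works with Bag3 in the removal of misfolded proteins by autophagy, read 13.10, 13.15 and 13.16 after Albulin, 12.92, 12.96 and 12.91 after Insulin-Apo, 13.01, 12.71 and 12.85 after insulin glargine, and 12.31, 12.47 and 12.38 after saline. Every insulin array was above every saline array, and Albulin was above all arrays of the other insulins. The rise was 0.75 after Albulin (standard error 0.063, limma adjusted p = 0.000216), 0.55 after Insulin-Apo (standard error 0.063, adjusted p = 0.00205, limma) and 0.47 after insulin glargine (standard error 0.079, adjusted p = 0.00243, limma). Albulin and Insulin-Apo differed by 0.21 (adjusted p = 0.200, limma) and insulin glargine and Albulin by -0.28 (adjusted p = 0.0438, limma), neither called.

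**Figure D4:**
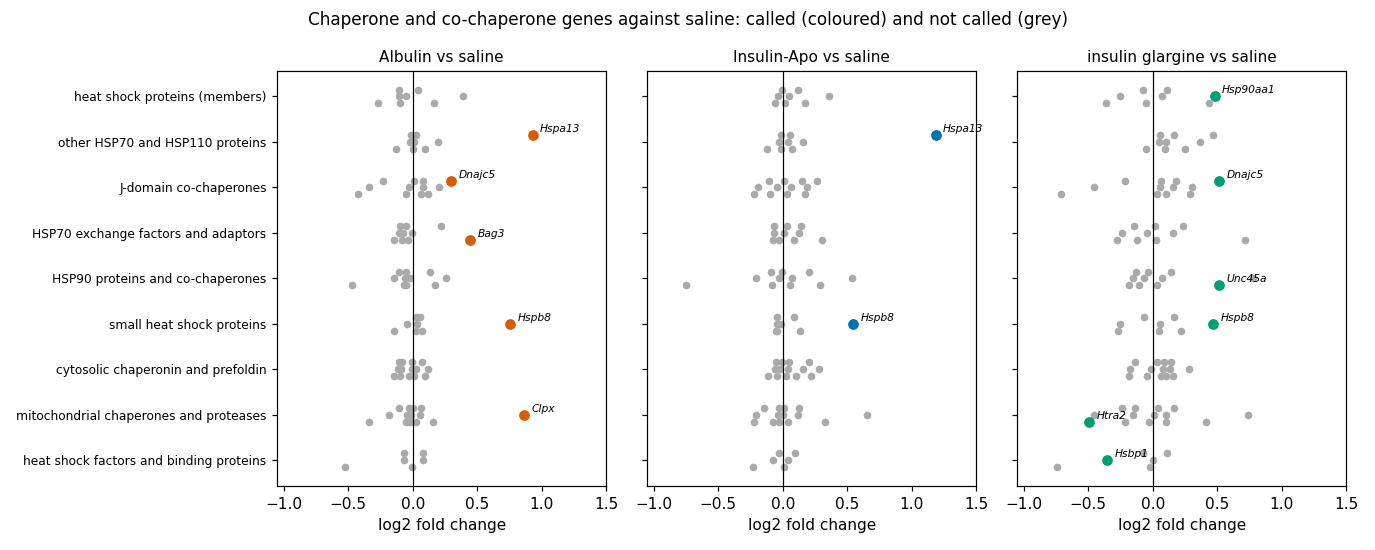
Log2 fold change against saline (horizontal axis) of the 8 members and of 8 lists of chaperone genes (rows, each point a gene) after Albulin, Insulin-Apo and insulin glargine, with called genes coloured and named and the others in grey. Hspb8 is coloured in all 3 panels, and most other genes lie near 0.

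Of 9 other HSP70 and HSP110 genes, 1 rose after Albulin and after Insulin-Apo and 0 were called after insulin glargine (limma, 3 higher at an unadjusted p under 0.05), with list medians of 0.013, 0.044 and 0.10. The smallest p of the list after insulin glargine was that of Hspa4, with all insulin glargine arrays above all saline arrays. Its log2 fold change was 0.37 (adjusted p = 0.0128, limma), or 0.39 without replicate 3 (adjusted p = 0.0132, limma), and neither was called. The called gene was Hspa13, an HSP70 relative of microsomes, which read 11.38, 11.36 and 11.19 after Albulin, 11.52, 11.93 and 11.25 after Insulin-Apo, 10.996, 11.14 and 9.77 after insulin glargine, and 10.31, 10.31 and 10.54 after saline. Hspa13 rose by 0.93 after Albulin (adjusted p = 0.00535, limma) and 1.18 after Insulin-Apo (adjusted p = 0.00247, limma), and both calls were lost when all 12 arrays shared the estimate of spread. Its value after insulin glargine was 0.25 with replicate 3, which was below all saline arrays, and 0.68 without it (adjusted p = 0.0138, limma, not called).

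Insulin glargine replicate 3 also decided 3 further genes of the HSP70 system. Hspa4l, an HSP110 relative, read 9.56, 9.91 and 9.17 after insulin glargine and 9.11, 9.06 and 9.08 after saline, a log2 fold change of 0.47 (adjusted p = 0.0618, limma) that was not called with replicate 3 and was 0.65 (adjusted p = 0.00272, limma) and called without it. Bag2, a nucleotide exchange factor that holds back the ubiquitin ligase CHIP, read 8.70, 8.32 and 7.81 after insulin glargine and 7.67, 7.48 and 7.54 after saline, a log2 fold change of 0.71 (adjusted p = 0.0182, limma) that became 0.95 (adjusted p = 0.000551, limma) and a call without replicate 3. Both genes were also called without replicate 3 against Albulin, by 0.68 for Hspa4l and 1.04 for Bag2, and against Insulin-Apo, by 0.77 and 1.01. Dnaja1, a J-domain partner of HSP70, read 12.48, 12.54 and 12.07 after insulin glargine and 11.97, 12.05 and 12.16 after saline, with 0.30 in all arrays (adjusted p = 0.138, limma) and a call at 0.45 without replicate 3 (adjusted p = 0.00813, limma). These genes were named after their values without replicate 3 were seen, so their calls without it give no independent support.

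Of 10 exchange factors and adaptors of HSP70, Bag3, the partner of Hspb8, rose after Albulin, and 0 were called after Insulin-Apo (1 higher at an unadjusted p under 0.05, limma) or insulin glargine (1 higher and 2 lower). List medians were -0.065 after Albulin, 0.019 after Insulin-Apo and -0.015 after insulin glargine. Bag3 read 10.04, 9.92 and 9.74 after Albulin, 9.68, 9.86 and 9.74 after Insulin-Apo, 9.50, 9.42 and 9.93 after insulin glargine, and 9.57, 9.37 and 9.43 after saline. Its rise of 0.44 after Albulin (adjusted p = 0.0200, limma) was called in 9 of 21 alternatives, and was lost without Albulin replicate 1 or 2, Insulin-Apo replicate 1 or 3, or saline replicate 2 or 3. After Insulin-Apo it had 0.31 (adjusted p = 0.0925, limma), with all arrays above saline.

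Of 12 J-domain co-chaperones, Dnajc5 rose after Albulin and after insulin glargine, and 0 were called after Insulin-Apo (3 higher and 1 lower at an unadjusted p under 0.05, limma), with medians of 0.036 after Albulin, 0.020 after Insulin-Apo and 0.084 after insulin glargine. Dnajc5, the cysteine string protein of secretory vesicles, read 11.03, 11.03 and 11.10 after Albulin, 11.06, 11.02 and 10.99 after Insulin-Apo, 11.16, 11.20 and 11.45 after insulin glargine, and 10.79, 10.76 and 10.71 after saline. All insulin arrays were above all saline arrays, and those of insulin glargine were the highest. The rise was 0.30 after Albulin (adjusted p = 0.0178, limma, lost when any 1 of the 9 arrays was left out) and 0.52 after insulin glargine (adjusted p = 0.00112, limma), with 0.27 after Insulin-Apo (adjusted p = 0.0315, limma, not called).

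The list of HSP90 proteins and co-chaperones held 11 measured genes, since Hsp90ab1 had no probe set of its own, and medians of -0.054 after Albulin, -0.0076 after Insulin-Apo and -0.038 after insulin glargine. Unc45a, a chaperone of myosin and a partner of HSP90, was the only one called, and only with insulin glargine. It read 9.13, 8.90 and 9.08 after Albulin, 9.17, 9.11 and 8.95 after Insulin-Apo, 9.70, 9.38 and 9.71 after insulin glargine, and 9.19, 9.05 and 9.02 after saline. Every insulin glargine array was above all arrays of the other groups, by 0.51 against saline (adjusted p = 0.00742, limma), 0.56 against Albulin (adjusted p = 0.00471, limma) and 0.52 against Insulin-Apo (adjusted p = 0.00690, limma). These calls held in 13, 17 and 13 of 23 alternatives, and all 3 were lost without insulin glargine replicate 1 or 3. The other arrays whose omission ended them were Albulin replicate 1, Insulin-Apo replicates 1 and 2 and saline replicates 2 and 3 against saline, Albulin replicate 2 against Albulin, Insulin-Apo replicates 1, 2 and 3 and saline replicates 2 and 3 against Insulin-Apo, and Albulin replicate 3 in all of them. After Albulin and Insulin-Apo 0 of the 11 were called (limma), with an unadjusted p under 0.05 for 1 higher after Albulin and for 3 higher and 1 lower after Insulin-Apo.

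Among 14 mitochondrial chaperones and proteases, Clpx rose after Albulin, Htra2 fell after insulin glargine and 0 were called after Insulin-Apo (limma, 2 higher and 2 lower at an unadjusted p under 0.05), with medians of -0.015 after Albulin, -0.011 after Insulin-Apo and -0.0099 after insulin glargine. Clpx, the unfoldase that feeds the ClpP protease, read 11.65, 11.62 and 11.67 after Albulin, 11.75, 11.40 and 11.15 after Insulin-Apo, 11.49, 11.17 and 11.90 after insulin glargine, and 11.002, 10.56 and 10.79 after saline. All insulin arrays were above saline, by 0.86 after Albulin (adjusted p = 0.00725, limma, called in all 21 alternatives), 0.65 after Insulin-Apo (adjusted p = 0.0302, limma) and 0.73 after insulin glargine (adjusted p = 0.0196, limma), of which only the first was called. The value after Insulin-Apo was called without Insulin-Apo replicate 3 or saline replicate 1, and that after insulin glargine without insulin glargine replicate 2.

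Htra2, a serine protease of the space between the mitochondrial membranes, read 9.83, 9.70 and 9.88 after Albulin, 9.91, 9.88 and 9.83 after Insulin-Apo, 9.56, 9.42 and 9.26 after insulin glargine, and 10.04, 9.89 and 9.80 after saline. The insulin glargine arrays were below all others, by -0.50 from saline (adjusted p = 0.00391, limma) and -0.46 from Insulin-Apo (adjusted p = 0.00613, limma), both called, and by -0.39 from Albulin (adjusted p = 0.0169, limma), not called. The call against saline was lost without insulin glargine replicate 2 or saline replicate 1 or 2, and that against Insulin-Apo without insulin glargine replicate 2 or 3, saline replicate 2 or any Insulin-Apo array. Without insulin glargine replicate 1 the difference from Albulin was called.

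**Figure D5:**
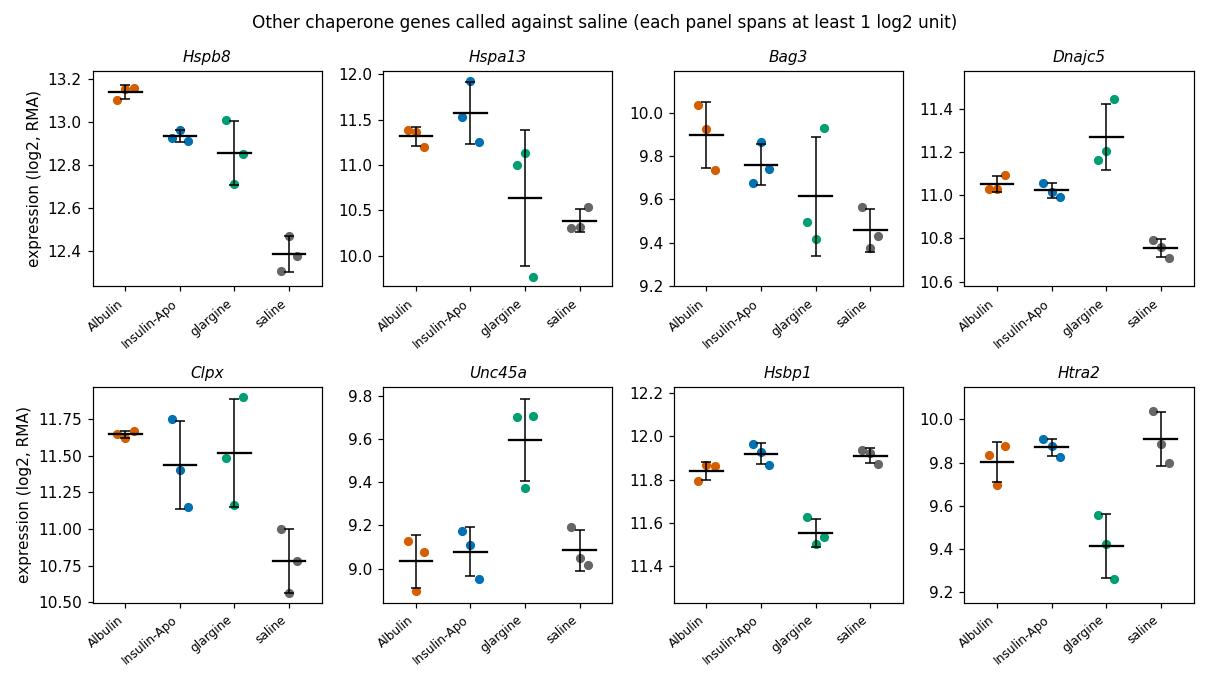
Expression (log2, RMA) of 8 other chaperone genes that were called against saline, after Albulin, Insulin-Apo, insulin glargine (glargine) and saline. Points are arrays, 3 in a group, with the group mean as a horizontal bar and its SD as whiskers. The insulin arrays lie above saline for Hspb8, Dnajc5 and Clpx, and those of insulin glargine lie above all others for Unc45a and below all others for Hsbp1 and Htra2.

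Of 6 heat shock factors and their binding proteins, Hsbp1, which binds HSF1 and represses it, fell after insulin glargine. It read 11.79, 11.87 and 11.86 after Albulin, 11.96, 11.93 and 11.87 after Insulin-Apo, 11.62, 11.50 and 11.54 after insulin glargine, and 11.94, 11.93 and 11.87 after saline. The insulin glargine arrays lay below all others, by -0.36 from saline (adjusted p = 0.00325, limma) and -0.37 from Insulin-Apo (adjusted p = 0.00287, limma), both called, and by -0.29 from Albulin (adjusted p = 0.0126, limma), not called. Both calls were lost without insulin glargine replicate 2, that against saline also without saline replicate 1 or 2, and that against Insulin-Apo without Insulin-Apo replicate 1. After Albulin and Insulin-Apo 0 of the 6 were called (limma), and at an unadjusted p under 0.05 there was 1 lower after Albulin and none after Insulin-Apo. That gene was Hsf2, a heat shock factor with roles in development, at 9.61, 9.66 and 9.77 after Albulin, 9.31, 9.96 and 9.13 after insulin glargine and 10.17, 9.92 and 10.54 after saline. Its log2 fold change was -0.53 after Albulin (adjusted p = 0.0690, limma), with no overlap, and -0.74 after insulin glargine (adjusted p = 0.0296, limma), with insulin glargine replicate 2 above the lowest saline array, and neither was called. Without insulin glargine replicate 3 the value after insulin glargine was -0.57 (adjusted p = 0.0837, limma). The list medians were -0.035 after Albulin, -0.013 after Insulin-Apo and -0.048 after insulin glargine.

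The cytosolic chaperonin, which folds actin and tubulin, and prefoldin, which delivers them to it, had 14 measured genes and 0 calls in any comparison (limma). At an unadjusted p under 0.05 against saline, none passed after Albulin, 4 were higher after Insulin-Apo, and 1 was higher and 1 lower after insulin glargine, with medians of -0.017, 0.033 and 0.070. The smallest p of the list was that of Pfdn6, a prefoldin subunit, for insulin glargine against Insulin-Apo (-0.33, adjusted p = 0.0161, limma, not called). Of Cirbp and Rbm3, RNA-binding proteins that cold induces, 0 of 2 were called in any comparison (limma), and against saline 1 was lower after Insulin-Apo and none after the other insulins at an unadjusted p under 0.05. Cirbp had a log2 difference of 0.64 for insulin glargine against Insulin-Apo (adjusted p = 0.0268, limma), or 0.57 without insulin glargine replicate 3 (adjusted p = 0.0707, limma), and -0.40 for Insulin-Apo against saline (adjusted p = 0.245, limma).

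Of 14 chaperones of the endoplasmic reticulum, which answer mainly to the unfolded protein response, 2 rose after Albulin (background 2.41%), 7 after Insulin-Apo (2.14%) and 1 after insulin glargine (4.84%), with medians of 0.097, 0.56 and 0.037. Whether these counts differ from those of the cytosolic and mitochondrial members was not tested. The gene called after insulin glargine was Hspa5 (BiP), the HSP70 of that compartment, which rose by 0.46 (adjusted p = 0.00742, limma). The count was 3 without insulin glargine replicate 3, with Hspa5 (0.52), Manf (0.62) and Creld2 (0.88), and it was 0 without Albulin replicate 1, 2 or 3, Insulin-Apo replicate 1 or 3, insulin glargine replicate 1 or 2, or saline replicate 1 or 2, each left out in turn. Between the insulins, no list of cytosolic or mitochondrial chaperones held a called gene for Albulin against Insulin-Apo (limma), and none had more than 1 gene higher or 2 lower at an unadjusted p under 0.05. In these lists, with all arrays, Unc45a was called for insulin glargine against Albulin, and against Insulin-Apo Unc45a, Hsbp1 and Htra2.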

How the data were processed

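cRNA made from 12 liver samples was hybridized by the authors to whole-transcript mouse arrays of Affymetrix, and the authors corrected and normalized the arrays with RMA. What was deposited is log2 expression of 28213 probe sets. For RMA and the annotation, the version or build was not given in the sources used here. The annotation named a single gene for 21640 probe sets, more genes for 1321 and no gene for 5252. Groups came from the sample labels. Following the methods, probe sets were kept if 2 or more arrays of a group exceeded 5, 25989 in the 9 arrays of Albulin, Insulin-Apo and saline and 26027 in all 12. Comparisons among those 3 groups were fitted with limma 3.58.1 (R 4.3.3) on 9 arrays, and those with insulin glargine and the F test on 12. A call needs B over 0 (prior proportion 0.01), and p-values were adjusted with the Benjamini-Hochberg method over all probe sets tested. Intervals are 95% intervals of the fit. With 3 arrays per group, their number limits the precision, and p-values cover no more than the scatter among these arrays, possibly technical.

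The members and the 11 gene lists, written from general knowledge, were chosen with earlier results of these data known. Named genes are the members, the called genes of each list or otherwise up to 4 with the smallest p, and the 5 genes most correlated with each profile. Hspa4l, Bag2 and Dnaja1 were named for their values without insulin glargine replicate 3. The alternatives were no filter or a filter at 6, centred arrays, an intensity trend, array weights, a replicate block, quantile normalization run again, other calls (an adjusted p below 0.05, with or without a minimum log2 change of 0.58), the mean of a gene's probe sets, other arrays in the fit, and each array left out in turn. The procedure was tested on simulated data. Python 3.11.15 with matplotlib 3.10.9 drew the figures.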

Additional observations from a re-analysis of the deposited data

Results flagged for a closer look

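A signal lay outside the probe set used for Hsp90aa1. Its probe set 10490946, which was not chosen because its mean over the 12 arrays was lower, was called higher after Albulin against saline, with a log2 fold change of 0.475 (adjusted p = 0.0162, limma), while the chosen probe set had 0.39 (adjusted p = 0.0287, limma) and was not called. The 3 Albulin arrays lay above the 3 saline arrays in both probe sets.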

How the results depend on the processing

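The number of members called after Albulin was 0, and 1 (Hsp90aa1) with repeated quantile normalization, with array quality weights and at an adjusted p under 0.05, and it ranged from 0 to 1 with each array left out. After Insulin-Apo it was 0, and 1 at an adjusted p under 0.05. After insulin glargine it was 1, and 0 with the replicate block, with the mean of a gene's probe sets, when a log2 change of 0.58 was required beside an adjusted p below 0.05 and with only those groups fitted, and it ranged from 0 to 1 with each array left out. The count of the F test ranged from 0 to 1 with each array left out. The other alternatives kept these counts, and the cause of the shifts was not tested. No member reversed among called values, and 39 of 1028 values that were not called had the other sign. Of 1452 list counts, 178 moved by over 1.5 times or went to or from 0. The replicate numbers did not pair the samples, with 2 of 18 same-numbered pairs correlating over 0.1, so the block is given here only. The small number of arrays limits every count.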

Other observations

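A pair of probe sets carries the symbols Snord14d, Snord14c and Hspa8 together, so that no gene can be named from them. Probe set 10584576 read 11.35, 11.41 and 11.38 after Albulin, 11.86, 11.93 and 11.53 after Insulin-Apo, 11.30, 11.09 and 11.89 after insulin glargine, and 11.97, 11.78 and 11.91 after saline, and it was called lower after Albulin (-0.51, adjusted p = 0.0170, limma). Probe set 10584578 read 10.53, 10.71 and 10.57 after Albulin, 11.17, 11.23 and 11.23 after Insulin-Apo, 10.28, 10.10 and 10.66 after insulin glargine, and 11.35, 10.68 and 11.38 after saline. It was called lower after insulin glargine than after Insulin-Apo (-0.86, adjusted p = 0.00663, limma), and its adjusted p over the 4 treatments was 0.0101 (limma F test). The 3 probe sets of Hspa8 alone were not called in any comparison, and insulin glargine replicate 3, the lowest array in them, was the highest of its group in this pair.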
